A study of Homo sapiens with 9 samples.

Results

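Aminoacyl-tRNA synthetases were examined gene by gene in MOLM13 cells after knockdown of DDX41, a DEAD-box RNA helicase. Each of these enzymes attaches 1 amino acid (for EPRS, either of a pair) to its matching tRNA, the step that supplies charged tRNA to the ribosome. In human cells a nuclear gene encodes the cytosolic enzyme and, for most amino acids, a separate nuclear gene (with the suffix 2) encodes the enzyme that is imported into mitochondria. The set consisted of every row of the deposited count table that carried 1 of 36 gene symbols, 20 for cytosolic and 16 for mitochondrial synthetases. All 36 were among the 30017 rows of the table and among the 12712 genes with enough counts to be tested. Many cytosolic synthetase genes are textbook targets of the amino acid response, in which the transcription factor ATF4 binds a C/EBP-ATF response element in the promoter, and several cytosolic enzymes are held with scaffold proteins in the multisynthetase complex.

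MOLM13 is an established human cell line from acute myeloid leukemia. The cells were transduced with a GFP lentivirus that carried a control hairpin (sh-Control) or 1 of 2 hairpins against DDX41 (shDDX41 #1 and shDDX41 #2), and were sorted on day 4. Each group had 3 RNA-seq libraries, named by the letters A, B and D. The labels do not say whether the letters were separate cultures, so p-values measure the spread between these libraries, which may be technical. Libraries held 16385238 to 20510032 counts. Levels are given in CPM, counts scaled to the depth of each library over tested genes and corrected by its TMM scaling factor (edgeR). A gene is called when its adjusted p was under 0.05 in edgeR's quasi-likelihood test (Benjamini-Hochberg over all tested genes, two-sided). Both hairpins were compared with the same sh-Control libraries, so these 2 comparisons are not independent. Whole sorted populations were measured, in which fewer cells with an mRNA and less of it per cell cannot be told apart.

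The targeted gene came first as a check of the labels. DDX41 levels were 117, 115 and 113 CPM in sh-Control (in the order A, B, D, which is used throughout), 12.2, 12.9 and 9.95 CPM with shDDX41 #1, and 38.9, 39.9 and 42.5 CPM with shDDX41 #2, so the hairpins left different amounts of the target mRNA (log2 fold changes -3.29 ± 0.09 (SE) and -1.51 ± 0.08). Library D of shDDX41 #1 stood apart from libraries A and B of its group, with a chi-square per degree of freedom of 18.01 and 19.66 over genes against 2.94 between A and B. The sh-Control libraries, shared by both comparisons, were also spread, at 8.23 to 10.4, against 2.47 to 3.30 in shDDX41 #2. Counts of called synthetases that rest on the shDDX41 #1 group are also given without its library D. For the smaller groupings and pairs this was a choice made after seeing the data. All 6 myeloid markers were expressed. LYZ, MPO and PTPRC were higher with shDDX41 #2 (log2 fold changes 0.96, 0.59 and 0.18), where CD33, FLT3 and SPI1 were not called, and CD33 and FLT3 were higher with shDDX41 #1 (0.25 and 0.20), where the other four were not called. The median over the 6 was 0.08 with shDDX41 #1 and 0.07 with shDDX41 #2. The summed level of the list was 1957 ± 35.6 CPM (SD, n = 3) in sh-Control, 1978 ± 13.2 with shDDX41 #1 and 2893 ± 14.3 with shDDX41 #2, of which LYZ made up 931 ± 54.9, 870 ± 40.0 and 1818 ± 20.6 CPM. Its part in the synthetase results was not tested. Markers of lymphoid, erythroid, epithelial, stromal and liver cells had summed CPM levels between 1.63 and 2.01 in the sh-Control libraries, between 0.723 and 1.03 in those of shDDX41 #1 and between 2.49 and 2.97 in those of shDDX41 #2, ranges that do not overlap, with MS4A1 and HBB at 0 in all libraries. The 1 of them with enough counts to be tested, the T cell gene CD3D, had means of 1.16, 0.483 and 1.92 CPM and was lower with shDDX41 #1 (log2 fold change -1.25, edgeR adjusted p = 0.0088) and not called with shDDX41 #2. The part of these low levels in the synthetase results was not tested either.

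The promoters were searched for 3 motifs, because promoter elements are what the amino acid response reads. RefSeq (GRCh38.p14) windows of 300 bases, 250 before and 50 after the start of the gene, were matched to 30 of the 36 genes, with DARS, LARS, VARS, YARS, AARS2 and VARS2 unmatched. The C/EBP-ATF response element was searched as TGATGNAA on both strands and was found in 6 of 16 cytosolic windows and 1 of 14 mitochondrial windows, against 3.67% of all 27305 windows and 2.53% of the 15843 windows of protein-coding genes. The 7 stretches below are printed on the strand of the gene, and capitals mark the match. In AARS, CARS, IARS, MARS and TARS the match lies on the opposite strand, so it appears as its reverse complement.
AARS, chr16:70289675-70289704, minus strand: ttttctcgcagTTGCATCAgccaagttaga
CARS, chr11:3057418-3057436, minus strand: cggggcggcggTTGCATCA
IARS, chr9:92293698-92293721, minus strand: ttttcagcgcgTTGCATCAcctcc
MARS, chr12:57488053-57488071, plus strand: gccggttccggTTGCATCA
NARS, chr18:57621815-57621833, minus strand: tctacgctctcTGATGCAA
TARS, chr5:33440956-33440974, plus strand: gcgcctttcgaTTGCATCA
YARS2, chr12:32756076-32756105, minus strand: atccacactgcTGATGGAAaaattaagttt
The 6 cytosolic matches read the same 8 letters on one strand or the other, and the YARS2 match differs from them at the position left free in the search. Counted from the start of the gene, the match began at -197 in YARS2, -187 in AARS and -13 in IARS. In MARS (-4) and CARS (-2) it ran across the start, and in TARS (3) and NARS (15) it lay after the start. An E-box (CACGTG) was found in 1 cytosolic window (IARS) and 3 mitochondrial windows (CARS2, EARS2, MARS2). Its share was 7.43% of all windows and 8.88% of those of protein-coding genes. The motif of NRF1, a regulator of many mitochondrial genes, was searched on both strands with 1 free position. It was found in 3 cytosolic windows (FARSB, SARS, TARS) and 3 mitochondrial windows (IARS2, MARS2, PARS2). Its share was 6.28% of all windows and 8.58% of those of protein-coding genes. A match is a string of letters and was not measured as a bound site.

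In sh-Control the cytosolic genes were the more abundant group. Per kilobase of annotated exon (GENCODE, GRCh38), cytosolic synthetases ranged from 20.6 to 135 CPM with a median of 73.2, and mitochondrial synthetases from 2.75 to 59.2 CPM with a median of 13.3. KARS, the lysine enzyme, was the highest at 135 ± 3.48 CPM per kilobase (SD, n = 3), and FARSA, the catalytic subunit for phenylalanine, followed at 123 ± 5.32. QARS (glutamine, 108 ± 6.09), GARS (glycine, 107 ± 1.83) and EPRS (glutamate and proline, 104 ± 1.95) came next and overlapped one another. IARS2, the mitochondrial isoleucine enzyme, was the highest of its group at 59.2 ± 2.83, among the lower cytosolic genes, and PARS2, for proline, was the lowest at 2.75 ± 0.365. In this order, 23 of the 35 neighbouring pairs had overlapping libraries, so the fine order is not resolved. Counts behind the members were high. PARS2 had at least 99 counts in a library, the next lowest (FARS2) at least 370, and EPRS up to 11011.

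With shDDX41 #1, cytosolic synthetases fell more often than they rose, while mitochondrial synthetases changed equally often in both directions. Of the 20 cytosolic genes, 11 were lower, 4 were higher and 5 were not called, where 47.8% of all tested genes were called, 24.1% lower and 23.7% higher. Their median log2 fold change was -0.28 (range -0.63 to 0.30), against 0.01 over all tested genes. Of the 16 mitochondrial genes, 5 were lower, 5 were higher and 6 were not called, with a median of 0.05 (range -0.67 to 0.45), a share in each direction close to the background just given. The 3 libraries of shDDX41 #1 lay wholly below those of sh-Control for 13 cytosolic genes and wholly above for 5, against 26.6% and 26.5% of all tested genes (53.1% in either direction). For the 16 mitochondrial genes these counts were 5 and 5. Without library D of shDDX41 #1, 12 cytosolic genes were lower and 5 higher, and 5 mitochondrial genes were lower and 6 higher, with medians of -0.30 and 0.000585. Upper quartile scaling moved the share of higher genes among all calls from 49.5% to 61.1%, and with it 11 cytosolic genes were lower and 5 higher, and 4 mitochondrial genes were lower and 6 higher.

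With shDDX41 #2, the hairpin that left more DDX41 mRNA, fewer synthetases were called, and those were mostly cytosolic genes that fell. Of the 20 cytosolic genes, 9 were lower, 1 was higher and 10 were not called, where 25% of all tested genes were called, 13.4% lower and 11.6% higher. Their median log2 fold change was -0.13 (range -0.56 to 0.20), against -0.01 over all tested genes. Of the 16 mitochondrial genes only YARS2 was called, as lower. None of them was higher by edgeR's adjusted p, nor by the DESeq2 Wald test, and 2 were higher at an unadjusted p under 0.05. The libraries lay wholly below sh-Control for 11 cytosolic genes and wholly above for 1, against 22.7% and 21.1% of all tested genes (43.8% in either direction). For the 16 mitochondrial genes these counts were 2 and 3. Leaving out library D of shDDX41 #2 left 4 cytosolic genes lower, and leaving out library B of sh-Control left 5 lower and 0 higher.

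**Figure D1:**
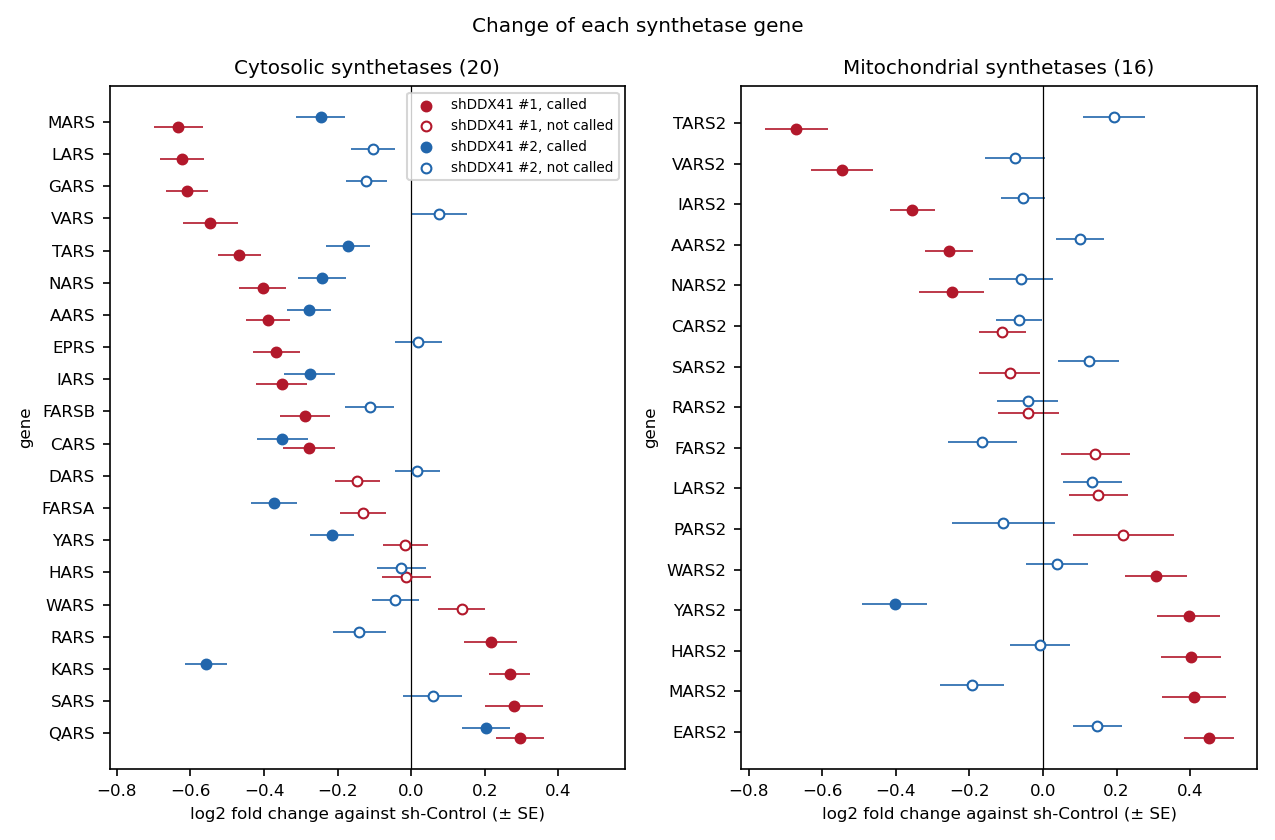
Log2 fold change against sh-Control (x axis, with SE) of the 20 cytosolic (left) and 16 mitochondrial (right) synthetase genes, ordered by their change with shDDX41 #1. Red points are shDDX41 #1, blue points shDDX41 #2, and filled points were called; the cytosolic panel holds 11 filled red points left of 0 and 4 right of it, and the mitochondrial panel 5 on each side.

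The largest cytosolic falls with shDDX41 #1 were in MARS, LARS, GARS and VARS. GARS, whose gene also supplies the glycine enzyme of mitochondria, was at 282, 290 and 282 CPM in sh-Control, at 188, 191 and 182 with shDDX41 #1, and at 264, 266 and 255 with shDDX41 #2. Its shDDX41 #1 libraries were far below all others, and those of shDDX41 #2 were also below sh-Control by a smaller step. GARS fell by 0.61 ± 0.06 on the log2 scale with shDDX41 #1 (SE, edgeR adjusted p = 7.5e-07) and was not called with shDDX41 #2. LARS, the leucine enzyme, was at 305, 316 and 331 CPM in sh-Control, 206, 208 and 204 with shDDX41 #1, and 296, 306 and 284 with shDDX41 #2. The shDDX41 #2 libraries overlapped sh-Control, and the shDDX41 #1 libraries did not (log2 fold change -0.62 ± 0.06, edgeR adjusted p = 9.3e-07). VARS, for valine, was at 403, 359 and 347 CPM in sh-Control, 259, 271 and 229 with shDDX41 #1, and 393, 396 and 379 with shDDX41 #2. It fell by 0.55 ± 0.08 with shDDX41 #1 (edgeR adjusted p = 3.2e-05), while the shDDX41 #2 libraries lay within the range of sh-Control.

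MARS, which charges methionine for both initiation and elongation, was at 185, 196 and 187 CPM in sh-Control. It was at 121, 132 and 114 CPM with shDDX41 #1 and at 164, 160 and 156 CPM with shDDX41 #2. The 3 groups did not overlap, with shDDX41 #2 between the other two. The log2 fold changes were -0.63 ± 0.07 (edgeR adjusted p = 2.4e-06) and -0.25 ± 0.07 (adjusted p = 0.013). TARS, the threonine enzyme, had the same order, with 347, 349 and 368 CPM in sh-Control, 249, 255 and 266 with shDDX41 #1, and 307, 323 and 316 with shDDX41 #2 (log2 fold changes -0.47 ± 0.06, adjusted p = 1.5e-05, and -0.17 ± 0.06, adjusted p = 0.044). NARS, for asparagine, was at 263, 281 and 303 CPM in sh-Control, 210, 207 and 222 with shDDX41 #1, and 236, 242 and 238 with shDDX41 #2. Its groups were also separate, and the changes were -0.40 ± 0.06 (edgeR adjusted p = 0.00013) and -0.24 ± 0.06 (adjusted p = 0.013).

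AARS, CARS and IARS fell by more similar amounts with the 2 hairpins. AARS, the alanine enzyme, was at 235, 224 and 235 CPM in sh-Control, 173, 181 and 176 with shDDX41 #1, and 189, 199 and 185 with shDDX41 #2. The 3 groups did not overlap, with shDDX41 #2 between the other two, as for MARS, TARS and NARS. The log2 fold changes were -0.39 ± 0.06 (edgeR adjusted p = 8.7e-05) and -0.28 ± 0.06 (adjusted p = 0.0035). CARS, for cysteine, was at 63.1, 63.3 and 66.6 CPM in sh-Control, 50.9, 50.8 and 57.5 with shDDX41 #1, and 48.3, 52.1 and 51.0 with shDDX41 #2. The knockdown groups overlapped each other and lay below sh-Control (-0.28 ± 0.07, edgeR adjusted p = 0.0042, and -0.35 ± 0.07, adjusted p = 0.0021). IARS, for isoleucine, was at 367, 415 and 398 CPM in sh-Control, 308, 330 and 288 with shDDX41 #1, and 322, 338 and 315 with shDDX41 #2, again with overlap only between the knockdown groups. Its changes were -0.35 ± 0.07 (edgeR adjusted p = 0.00072) and -0.28 ± 0.07 (adjusted p = 0.0092). None of these 3 genes was called between the hairpins by edgeR or by DESeq2 (adjusted p = 0.14 for AARS, 0.41 for CARS and 0.39 for IARS by edgeR), which does not show that they changed alike. NARS was not called between the hairpins by edgeR either (adjusted p = 0.051), but was by the DESeq2 Wald test (0.030).

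Some of these calls with shDDX41 #2 rested on single libraries. Without library B of sh-Control the adjusted p was 0.051 for IARS, 0.068 for MARS and 0.078 for TARS, and for NARS it was 0.063 without library D of sh-Control. Without library D of shDDX41 #2 it was 0.0504 for IARS, 0.066 for MARS, 0.051 for NARS and 0.12 for TARS, without library B it was 0.052 for MARS and 0.083 for TARS, and without library A it was 0.055 for NARS and 0.16 for TARS. TARS was also lost without library D of sh-Control (0.14) and without library A (0.063) or B (0.061) of shDDX41 #1, and its adjusted p was 0.051 with DESeq2 size factors, 0.11 with upper quartile scaling and 0.11 without a filter on low counts. AARS and CARS were called in every setting tried, and no called member changed sign in any.

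QARS and KARS did not follow the majority. QARS, the glutamine enzyme, was at 318, 293 and 327 CPM in sh-Control, 383, 365 and 405 with shDDX41 #1, and 362, 371 and 348 with shDDX41 #2. Both knockdown groups lay above sh-Control, with log2 fold changes of 0.30 ± 0.07 (edgeR adjusted p = 0.0017) and 0.20 ± 0.07 (adjusted p = 0.032). The second call was lost without library B of sh-Control (adjusted p = 0.12) and without library A (0.10), B (0.13) or D (0.059) of shDDX41 #2. KARS, whose gene spans chr16:75627474-75648643 (GRCh38, minus strand) and encodes both the cytosolic and the mitochondrial lysine enzyme through alternative splicing, moved in opposite directions. It was at 337, 321 and 331 CPM in sh-Control, 401, 389 and 400 with shDDX41 #1, and 225, 226 and 221 with shDDX41 #2. The 3 groups were fully separate. KARS rose by 0.27 ± 0.06 on the log2 scale with shDDX41 #1 (edgeR adjusted p = 0.0011), fell by 0.56 ± 0.06 with shDDX41 #2 (adjusted p = 6.8e-06), and was 0.82 ± 0.06 higher with shDDX41 #1 than with shDDX41 #2 (adjusted p = 3.3e-08). Gene counts do not separate its 2 products.

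The other cytosolic genes were called with 1 hairpin or with neither. EPRS and FARSB, the regulatory subunit for phenylalanine, fell with shDDX41 #1 (log2 fold changes -0.37 and -0.29), and SARS (serine) and RARS (arginine) rose with it (0.28 and 0.22). The RARS call was lost without library A or B of sh-Control (adjusted p = 0.081 and 0.073) and with only the 6 libraries compared (0.058). FARSA was at 270, 250 and 252 CPM in sh-Control, 227, 238 and 241 with shDDX41 #1, and 191, 197 and 208 with shDDX41 #2. The shDDX41 #2 libraries were the lowest and did not overlap either group, and FARSA fell by 0.37 ± 0.06 with that hairpin (edgeR adjusted p = 0.00055). FARSA and FARSB form 1 enzyme, and each was called with a different hairpin. YARS, for tyrosine, fell with shDDX41 #2 by 0.22 on the log2 scale, a call lost without library B of sh-Control or without library B or D of shDDX41 #2 (adjusted p = 0.059, 0.060 and 0.078). DARS (aspartate), HARS (histidine) and WARS (tryptophan) were not called against sh-Control with either hairpin and had sh-Control means of 162, 88.1 and 131 CPM, against 146, 87.2 and 144 with shDDX41 #1 and 164, 86.4 and 127 with shDDX41 #2. Without library D of shDDX41 #1, DARS was called lower and WARS higher with that hairpin (adjusted p = 0.028 and 0.031), and WARS also without library A of sh-Control (0.045) and with upper quartile scaling (0.013).

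**Figure D2:**
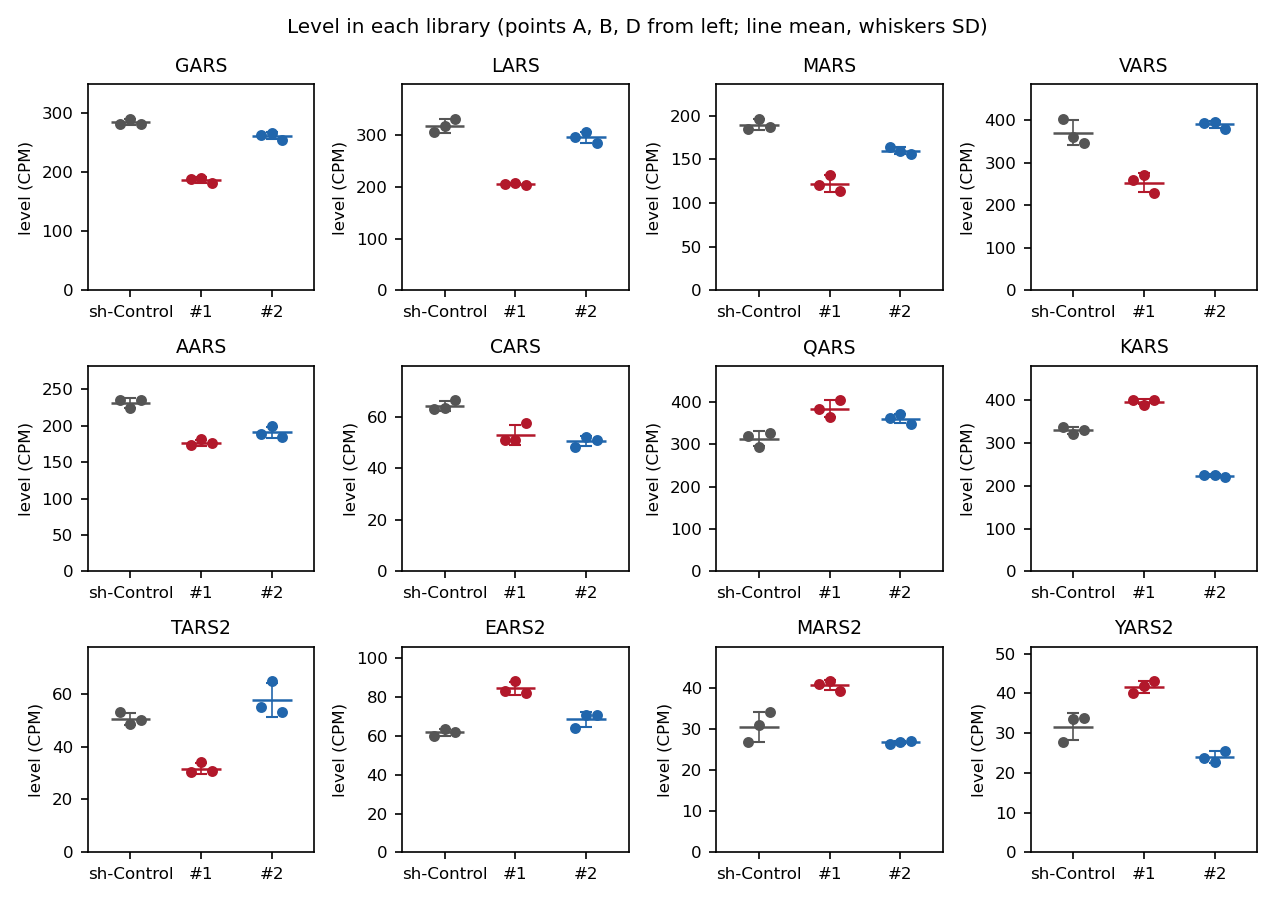
Level in CPM (y axis, from 0) of 12 synthetase genes in every library, with 1 point per library, the mean as a line and the SD as whiskers. In KARS and YARS2 the shDDX41 #1 points (red) lie above sh-Control (grey) and the shDDX41 #2 points (blue) below it, in GARS, LARS, VARS and TARS2 only the red points are well below, and in QARS both colours are above.

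Among the mitochondrial genes the 2 largest changes with shDDX41 #1 were falls, in TARS2 and VARS2, and the largest rise was in EARS2. TARS2, the threonine enzyme, was at 52.8, 48.4 and 49.9 CPM in sh-Control, 30.3, 34.0 and 30.7 with shDDX41 #1, and 54.7, 64.8 and 53.1 with shDDX41 #2. Its shDDX41 #1 libraries were lowest, and those of shDDX41 #2 were above all 3 of sh-Control. TARS2 fell by 0.67 ± 0.09 on the log2 scale with shDDX41 #1 (edgeR adjusted p = 1.8e-05) and was not called with shDDX41 #2 unless library D of shDDX41 #1 was left out (adjusted p = 0.0496). VARS2 (valine), IARS2, AARS2 (alanine) and NARS2 (asparagine) also fell with shDDX41 #1, with log2 fold changes of -0.55, -0.35, -0.26 and -0.25. For NARS2 the call was lost without library D of sh-Control or library A of shDDX41 #1 (adjusted p = 0.11 and 0.14) and with upper quartile scaling (0.12).

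EARS2, HARS2, MARS2, YARS2 and WARS2 rose with shDDX41 #1. EARS2, the glutamate enzyme, was at 59.9, 63.6 and 61.8 CPM in sh-Control, 82.9, 88.3 and 82.2 with shDDX41 #1, and 63.8, 71.0 and 70.5 with shDDX41 #2. The 3 groups did not overlap, and the rise was 0.45 ± 0.07 with shDDX41 #1 (edgeR adjusted p = 6.5e-05). HARS2, for histidine, was at 33.3, 38.5 and 39.6 CPM in sh-Control, 45.9, 52.8 and 48.5 with shDDX41 #1, and 36.5, 37.0 and 37.3 with shDDX41 #2. Only shDDX41 #1 stood apart, by 0.40 ± 0.08 (adjusted p = 0.00085). HARS2 shares 14.2% of its exon bases with HARS on the other strand, so reads of the 2 genes may be mixed. EARS2 shares 8.15% with UBFD1 in the same way. WARS (10.95%), YARS (7.66%), CARS (7.46%) and some other members, most by smaller shares, also overlap genes on the other strand. MARS2, for methionine, was at 26.7, 30.9 and 34.0 CPM in sh-Control, 41.0, 41.7 and 39.2 with shDDX41 #1, and 26.4, 26.8 and 27.0 with shDDX41 #2. It was 0.41 ± 0.09 higher with shDDX41 #1 than in sh-Control (edgeR adjusted p = 0.0011), whereas the shDDX41 #2 libraries overlapped the lowest control. WARS2, for tryptophan, was 0.31 higher with shDDX41 #1.

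YARS2, the mitochondrial tyrosine enzyme, was the other gene besides KARS that was called in opposite directions. It was at 27.8, 33.5 and 33.7 CPM in sh-Control, 40.1, 41.7 and 43.1 with shDDX41 #1, and 23.6, 22.8 and 25.5 with shDDX41 #2. The 3 groups did not overlap. It rose by 0.40 ± 0.09 with shDDX41 #1 (edgeR adjusted p = 0.0015) and fell by 0.40 ± 0.09 with shDDX41 #2 (adjusted p = 0.0042), and both calls held in every setting tried. CARS2, FARS2, LARS2, PARS2, RARS2 and SARS2 were not called against sh-Control with either hairpin. LARS2 was called higher with shDDX41 #1 without library D of that group (adjusted p = 0.017) and with upper quartile scaling (0.027), and MARS2 lower with shDDX41 #2 without library A of sh-Control (adjusted p = 0.022). SARS2 shares 67.4% of its exon bases with a readthrough transcript on its own strand and 15.8% with MRPS12 on the other, so its count is uncertain.

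Compared directly, the hairpins differed in 25 of the 36 genes, in both directions. Between shDDX41 #1 and shDDX41 #2, 6 cytosolic genes were higher with shDDX41 #1 (FARSA, KARS, RARS, SARS, WARS, YARS) and 8 were lower (DARS, EPRS, FARSB, GARS, LARS, MARS, TARS, VARS), where 48.8% of all tested genes were called, 24.6% higher and 24.2% lower. Of the mitochondrial genes, 6 were higher (EARS2, FARS2, HARS2, MARS2, WARS2, YARS2) and 5 lower (AARS2, IARS2, SARS2, TARS2, VARS2). The medians were -0.09 for cytosolic and 0.01 for mitochondrial genes, against 0.01 over all tested genes. The libraries of the 2 hairpins did not overlap for 16 cytosolic genes, 6 higher and 10 lower, against 29.2% and 28.5% of all tested genes (57.7% in either direction). Of the mitochondrial genes, 7 were wholly higher and 5 wholly lower. Without library D of shDDX41 #1, 5 cytosolic genes were higher and 9 lower, and 5 mitochondrial genes were higher and 4 lower, with medians of -0.07 and 0.03, and without library D of shDDX41 #2 only 3 cytosolic genes were higher.

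The 4 genes with the smallest adjusted p in each direction between the hairpins were KARS, YARS2, MARS2 and HARS2, higher with shDDX41 #1, and TARS2, LARS, GARS and VARS, lower with it. The log2 fold change of TARS2 between them was -0.86 ± 0.09 (edgeR adjusted p = 1.3e-06), and YARS2 was 0.80 ± 0.09 higher (adjusted p = 3.5e-06). LARS, GARS and VARS were lower with shDDX41 #1 (-0.52 ± 0.06, adjusted p = 5.5e-06; -0.49 ± 0.06, 6.7e-06; and -0.62 ± 0.08, 9.0e-06). MARS2 and HARS2 were higher, by 0.60 ± 0.09 and 0.41 ± 0.08 (edgeR adjusted p = 4.3e-05 and 0.00068). These 8 calls held in every setting tried. Weaker calls between the hairpins did not. Without library D of shDDX41 #1 the call was lost for SARS (adjusted p = 0.11), FARS2 (0.056) and SARS2 (0.067), without its library A for DARS (0.059), FARSB (0.16), WARS (0.10) and SARS2 (0.11), and without its library B for DARS (0.15), FARSB (0.067), WARS (0.078), YARS (0.067) and SARS2 (0.051). Without library A of shDDX41 #2 it was lost for DARS (0.098), FARSB (0.091), SARS (0.12), WARS (0.092), FARS2 (0.073), SARS2 (0.094) and WARS2 (0.060), without its library B for DARS (0.12), FARSB (0.16) and SARS2 (0.063), and without its library D for DARS (0.080), FARSB (0.056), SARS (0.086), WARS (0.11), YARS (0.061), SARS2 (0.13) and WARS2 (0.059). With upper quartile scaling it was lost for DARS (0.13), FARSB (0.12) and SARS2 (0.097), and without a filter on low counts for DARS (0.066), FARSB (0.052) and WARS (0.068). NARS, NARS2 and PARS2 were each called in some setting only.

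Summed over genes, the scaled level of cytosolic synthetase mRNA was lower after knockdown. The cytosolic sum was 4892, 4889 and 4966 CPM in sh-Control, 4177, 4263 and 4204 with shDDX41 #1, and 4463, 4586 and 4406 with shDDX41 #2. The 3 groups did not overlap, and the means differed from sh-Control by -14.3% and -8.76%. The mitochondrial sum was 831, 854 and 859 CPM in sh-Control, 792, 843 and 811 with shDDX41 #1, and 830, 871 and 840 with shDDX41 #2. Here all groups overlapped, and the change of the mean with shDDX41 #1 was -3.85% and turned to 1.34% with upper quartile scaling. The ratio of cytosolic to mitochondrial sums, which no scaling of the libraries can change, was 5.89, 5.72 and 5.78 in sh-Control, 5.27, 5.06 and 5.18 with shDDX41 #1, and 5.38, 5.27 and 5.25 with shDDX41 #2. Each library of both knockdown groups lay below each sh-Control library, and the 2 knockdown groups overlapped. The changes of the shDDX41 #1 means without its library D were -13.5% for the cytosolic sum, -2.90% for the mitochondrial sum and -10.9% for the ratio.

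**Figure D3:**
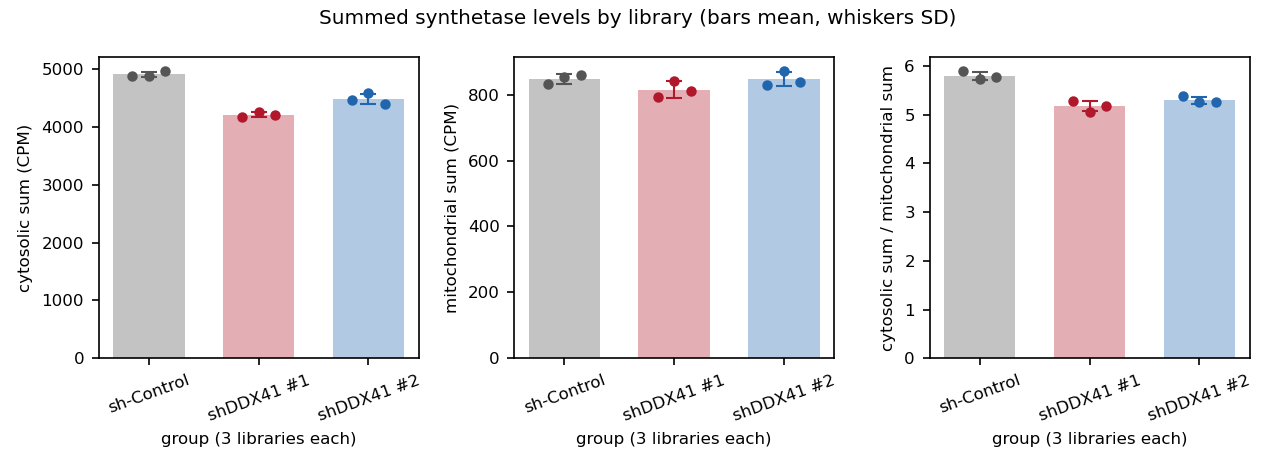
Summed level of the 20 cytosolic genes (left, CPM), of the 16 mitochondrial genes (middle, CPM) and their ratio (right) in each group, with bars for the mean, whiskers for the SD and 1 point per library. The cytosolic sum and the ratio are lower in both knockdown groups than in any sh-Control library, with mean ratios of 5.80, 5.17 and 5.30, and the mitochondrial sums overlap.

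The same fold changes were also set side by side for enzymes of the same amino acid, which is not a separate observation. Of 16 pairs of a cytosolic and a mitochondrial gene, the log2 fold change of the cytosolic gene lay below that of its partner in 12 pairs with shDDX41 #1 and in 13 with shDDX41 #2, with median differences of -0.17 and -0.11. EPRS enters 2 of these pairs, with EARS2 and PARS2. DARS, FARSB, GARS, KARS and QARS are in no pair. Of these, KARS and QARS were called higher and FARSB and GARS lower with shDDX41 #1. The widest gap with shDDX41 #1 was for methionine, where MARS fell and MARS2 rose, a difference in log2 fold change of -1.04. The gap was -0.82 for EPRS and EARS2 and -0.77 for LARS and LARS2. It was close to 0 for VARS and VARS2 and for IARS and IARS2, which fell together, and of the other sign for TARS and TARS2 (0.20), RARS and RARS2 (0.26) and SARS and SARS2 (0.37). With shDDX41 #2 the widest gaps were for AARS and AARS2 (-0.38) and TARS and TARS2 (-0.37). Between the hairpins the cytosolic gene was the lower of the pair in 9 of 16. It was the lower, when library D of shDDX41 #1 was left out, in 11 pairs with shDDX41 #1 (median difference -0.18), 13 with shDDX41 #2 and 8 between the hairpins. The difference within a pair was not tested.

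**Figure D4:**
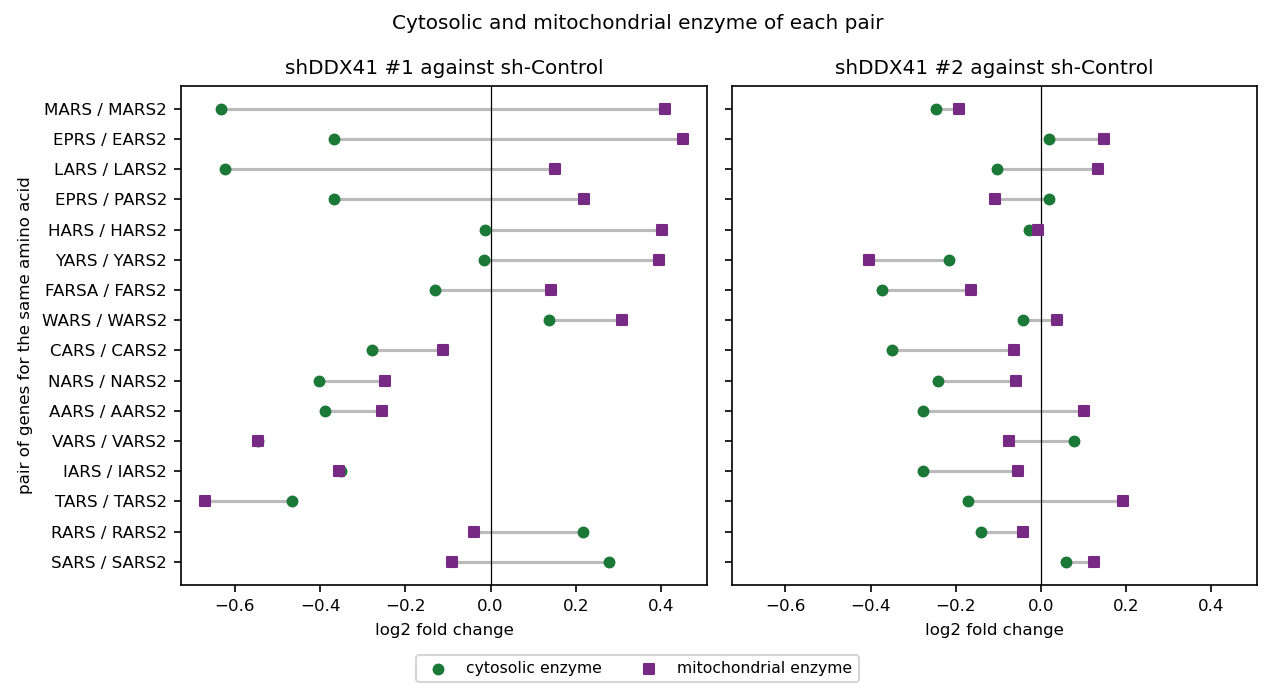
Log2 fold change against sh-Control (x axis) of the cytosolic gene (green circle) and the mitochondrial gene (purple square) for the same amino acid in 16 pairs, for shDDX41 #1 (left) and shDDX41 #2 (right). The circle lies left of the square in 12 pairs on the left and 13 on the right, and the widest gap is that of MARS and MARS2 with shDDX41 #1 (-1.04).

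Most of the cytosolic genes that fell were listed as amino acid response targets. Of these 12 (AARS, CARS, EPRS, GARS, IARS, LARS, MARS, NARS, SARS, TARS, WARS and YARS), 9 were lower and 1 was higher with shDDX41 #1 (median log2 fold change -0.38), and 7 were lower with shDDX41 #2 (median -0.19), where 24.1% and 13.4% of all tested genes were lower. Of the other 8 cytosolic genes, 2 were lower and 3 higher with shDDX41 #1, and 2 were lower and 1 higher with shDDX41 #2, with a median of -0.07 for each hairpin. With library D of shDDX41 #1 left out, 9 of the 12 were lower and 2 higher with shDDX41 #1, and of the other 8, 3 were lower and 3 higher. The sum of the 12 was 3134 ± 60.3 CPM (SD, n = 3) in sh-Control, 2452 ± 58.6 with shDDX41 #1 and 2822 ± 66.2 with shDDX41 #2, without overlap between any groups. The sum of the other 8 was 1782 ± 51.3, 1763 ± 31.5 and 1663 ± 25.8 CPM, and with shDDX41 #1 it overlapped sh-Control. The difference between the 2 lists was not tested.

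The genes were also grouped by their place in the multisynthetase complex and by catalytic class. Of the 8 complex enzymes, 4 were lower (EPRS, IARS, LARS, MARS) and 3 higher (KARS, QARS, RARS) with shDDX41 #1, and of the 12 enzymes outside it 7 were lower and 1 (SARS) higher, against 24.1% lower and 23.7% higher among all tested genes. Of 9 class I cytosolic genes, 5 were lower and 2 higher with shDDX41 #1, and of 10 class II genes likewise 5 and 2, with EPRS holding a domain of each class. Among mitochondrial genes with shDDX41 #1, class I had 4 higher and 2 lower of 9, and class II had 1 higher and 3 lower of 7. In groups of 7 to 12 genes such counts are coarse, and differences between these groups were not tested. In the fit that left out library D of shDDX41 #1, the complex had 5 lower and 3 higher with that hairpin, and the enzymes outside it 7 and 2. Cytosolic class I then had 5 and 3, cytosolic class II 6 and 2, and mitochondrial class I 2 and 5, while mitochondrial class II again had 3 and 1. With shDDX41 #2 and all libraries, the complex had 3 lower and 1 higher, and the enzymes outside it 6 and 0. Cytosolic class I had 4 and 1 and class II 5 and 0, against 13.4% lower and 11.6% higher among all tested genes. Of the 3 scaffold proteins of the complex, EEF1E1 (AIMP3) fell with both hairpins (log2 fold changes -0.79 ± 0.11 and -0.44 ± 0.11, edgeR adjusted p = 5.2e-05 and 0.0097), from 25.9 ± 2.32 CPM (SD, n = 3) in sh-Control to 14.96 ± 2.29 and 19.1 ± 1.5. AIMP1 and AIMP2 were not called, at 90.1 and 58.5 CPM in sh-Control, 94.6 and 65.8 with shDDX41 #1, and 88.0 and 58.6 with shDDX41 #2.

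Set beside the promoter stretches printed above, the 6 cytosolic genes with a response element (AARS, CARS, IARS, MARS, NARS and TARS) were all called lower, 6 of 6 with shDDX41 #1 and 6 of 6 with shDDX41 #2. Their log2 fold changes ranged from -0.63 to -0.28 and from -0.35 to -0.17. Of the 10 cytosolic genes whose window held no match, 3 were lower and 4 higher with shDDX41 #1, and 2 were lower and 1 higher with shDDX41 #2. Leaving out library D of shDDX41 #1, 6 of 6 genes with a match were lower with each hairpin. Of those without, 3 were then lower and 5 higher with shDDX41 #1, and 2 lower and 1 higher with shDDX41 #2. Leaving out library D of shDDX41 #2 instead, the calls of IARS, MARS, NARS and TARS with that hairpin were lost. Their edgeR adjusted p was then 0.0504, 0.066, 0.051 and 0.12. Without library B of sh-Control, the calls of IARS, MARS and TARS with shDDX41 #2 were lost (0.051, 0.068 and 0.078). GARS, the largest fall with shDDX41 #1 among the 10 cytosolic genes without a match, is 1 of them, and LARS and VARS had no window to search. YARS2, the 1 mitochondrial gene with a match, rose with shDDX41 #1 and fell with shDDX41 #2. Across all 157 tested genes with a match, 32.5% were lower with shDDX41 #1 and 19.7% with shDDX41 #2. Among the 9539 tested genes whose window held none, the shares were 25.3% and 14.2%. The 157 include the 6 cytosolic genes and YARS2, so their shares are not independent of the member counts. Of the amino acid response genes described next, 5 had a match and 18 had a window without one. With a match, 2 were lower with shDDX41 #1 and 3 with shDDX41 #2 (40% and 60%). Without one, 8 and 13 were lower (44.4% and 72.2%). The genes and the motif were chosen with earlier results known, and the link between match and change was not tested.

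**Figure D5:**
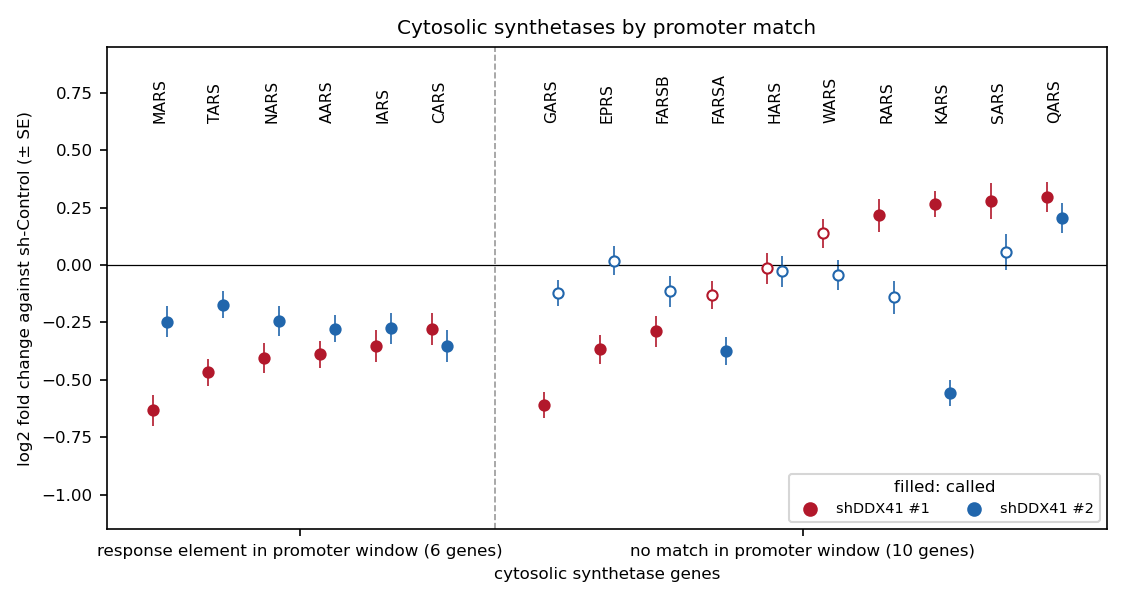
Log2 fold change against sh-Control (y axis, with SE) of the 16 cytosolic genes with a promoter window, split into 6 with a C/EBP-ATF response element and 10 without, red for shDDX41 #1 and blue for shDDX41 #2, filled where called. All 12 points of the 6 genes with a match are filled and below 0, from -0.63 to -0.17, while those of the 10 others lie on both sides of 0.

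ATF4 and other genes of the amino acid response did not all move with the synthetases. ATF4 mRNA was at 647 ± 22.7 CPM (SD, n = 3) in sh-Control and 714 ± 56.5 with shDDX41 #1, where it was not called, and at 540 ± 22.4 with shDDX41 #2, where it fell by 0.26 ± 0.07 on the log2 scale (edgeR adjusted p = 0.012). Of the 29 tested genes of the list, 15 were lower and 2 higher with shDDX41 #1 (median log2 fold change -0.25), and 19 were lower with shDDX41 #2 (median -0.38), where 24.1% and 13.4% of all tested genes were lower and 23.7% were higher with shDDX41 #1. When library D of shDDX41 #1 was left out, 14 were lower and 3 higher with that hairpin (median -0.16). ALDH1L2, PHGDH and PSAT1, enzymes of folate metabolism and serine synthesis, fell with shDDX41 #1 by 1.49, 0.83 and 0.81 on the log2 scale and with shDDX41 #2 by 0.67, 0.39 and 0.47. SLC3A2, the heavy chain of amino acid transporters, and CHAC1, which degrades glutathione, fell with shDDX41 #2 by 0.53 and 0.83. With shDDX41 #1 CHAC1 fell by 0.49 (edgeR adjusted p = 0.00094), while SLC3A2 was not called, at 198 ± 1.36 CPM against 194 ± 11.3 in sh-Control (SD, n = 3). DDIT3 (CHOP), a stress-induced transcription factor whose gene overlaps 2.13% of the exon bases of MARS on the other strand, was 1.25 higher with shDDX41 #1 than with shDDX41 #2. Against sh-Control, DDIT3 was not called with shDDX41 #1 (log2 fold change 0.29, edgeR adjusted p = 0.065). With shDDX41 #2 it fell by 0.96 (adjusted p = 0.00011). By their medians the list fell further with shDDX41 #2 and the cytosolic synthetases with shDDX41 #1, a difference that was not tested.

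Genes that handle tRNA or work beside the synthetases were mixed. Of 7 tested genes that handle cytosolic tRNA, 3 were higher and 2 lower with shDDX41 #1, and 2 were higher and 2 lower with shDDX41 #2, against 23.7% higher and 24.1% lower of all tested genes with the first hairpin and 11.6% and 13.4% with the other. EEF1A1, the elongation factor that delivers charged tRNA to the ribosome and that has many near-identical pseudogene copies, rose (log2 fold changes 0.78 and 0.29), as did EEF1G (0.49 and 0.24). XPOT, which exports tRNA from the nucleus, fell (-0.27 and -0.23), as did DTD1, which removes D-amino acids from tRNA (-0.49 and -0.28). Of 6 genes that work with the mitochondrial synthetases, QRSL1 and PET112, subunits of the enzyme that completes glutamine charging, and TUFM, the mitochondrial elongation factor, rose with shDDX41 #1 by 0.17, 0.23 and 0.17. The PET112 call was lost without library D of shDDX41 #1 (adjusted p = 0.085). These 3 were at 71.5, 41.1 and 377 CPM in sh-Control and at 66.5, 43.0 and 385 CPM with shDDX41 #2, where they were not called. GATC, another subunit of the enzyme that completes glutamine charging, was not called with either hairpin (log2 fold changes -0.12 and 0.20). It was lower with shDDX41 #1 than with shDDX41 #2 (-0.31, edgeR adjusted p = 0.0023).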

How the data were processed

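RNA-seq was done on 9 MOLM13 libraries, 3 per group, sorted on day 4. The authors deposited raw counts, a whole number for every gene and library. Per the submitters' processing notes, FastQC 0.11.7, HISAT2 2.0.5 and featureCounts 1.5.2 were used. The notes list the builds hg38 and mm10 without their roles. The annotation is not given in the sources used here. The labels name a stranded kit and the study's methods another one, so overlapping genes are uncertain. All 9 columns were matched to a library and 0 were left unmapped.

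The analysis used edgeR 4.0.16 under R 4.3.3. filterByExpr (minimum count 10) kept 12712 genes (42.3% of the table). After TMM scaling, all 9 libraries entered 1 quasi-likelihood fit with the group as its factor (scaling factors 0.963 to 1.02, biological coefficient of variation 0.0768), with Benjamini-Hochberg adjustment within each of 3 contrasts. The SE is the size of the log2 fold change divided by the square root of F. With 3 against 3 libraries, calls rest on this model fitted across genes. The scripts were tested on simulated data.

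Per-library values and full statistics are given for members called against sh-Control with each hairpin and, in each contrast, for the 4 called members with the smallest adjusted p in each direction. The value of 1 marker gene is not reported here. From other lists, DDX41, each list's leading called genes and those a result turns on are named. Exon lengths came from GENCODE v29. Members, gene lists and motifs were chosen with earlier results of these data known. Alternatives were DESeq2 1.42.0 size factors and Wald test, upper quartile scaling, filters, 6 libraries only, a replicate block and leaving out each library.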

Additional observations from a re-analysis of the deposited data

How the results depend on the processing

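With upper quartile scaling, which moved the median of all genes with shDDX41 #1 from 0.01 to 0.09 and the share of higher calls from 49.5% to 61.1%, the mitochondrial median with shDDX41 #1 was 0.13, and with shDDX41 #2 the cytosolic median was -0.10 and the mitochondrial median -0.0138. The cytosolic sums changed by -9.64% and -6.59% and the mitochondrial sum with shDDX41 #1 by 1.34%. Leaving out 1 library at a time gave a mitochondrial median of 0.000585 to 0.0964 with shDDX41 #1. With shDDX41 #2 it gave 2054 (without its library B) to 4248 genes called (without library D of shDDX41 #1), 0 to 1 cytosolic genes higher and 4 to 9 lower with a median of -0.16 to -0.11, and 0 to 1 mitochondrial genes higher and 1 to 2 lower with a median of -0.0715 to 0.0103. Between the hairpins it gave 3 to 6 cytosolic genes higher.

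Of the called members, 23 of 25 with shDDX41 #1, 5 of 11 with shDDX41 #2 and 17 of 25 between the hairpins were called in every setting, and 0 changed sign. Between sh-Control and shDDX41 #1 same-letter libraries deviated together weakly (correlations 0.0725 for A, 0.158 for B and 0.243 for D) and each correlated best with its own letter, a hint from the data and not from the design. In the other 2 group pairs the correlations were -0.0574 to 0.0225. Since not every pair was over 0.1, the letters were not taken to pair libraries. With the letter as a replicate block, 6351, 3570 and 6503 genes were called in the 3 contrasts, and NARS was also called between the hairpins (adjusted p = 0.038). Depth limits PARS2 most.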
